A study of Mus musculus with 2 samples.

Results

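Expression of p53 and of 9 genes linked to it, most of them targets or relatives of targets that act in cell-cycle arrest or stress responses, was compared between *Dnmt1*-WT mice and mice with a smooth muscle knockout (*Dnmt1*-KO) in tunica muscularis of the jejunum, the muscle layers around the gut wall. The genes were chosen by symbol, and *Trp53*, *Cdkn1a*, *Mdm2*, *Ccng1*, *Btg2*, *Phlda3*, *Sesn2*, *Plk2*, *Gadd45a* and *Gadd45g* were all found among the 18159 genes listed. All 10 were above 0 in both libraries, and all 10 reached 1 FPKM or more in both, FPKM being a level that takes account of transcript length and of the mapped fragments in a library. Both groups were C57BL/6 mice aged 15 days (P15) that carried a transgene, Tg(Myh11-cre,-EGFP)2Mik, which makes Cre recombinase and eGFP under the smooth muscle promoter of *Myh11*. In *Dnmt1*-KO mice Cre removed the part of *Dnmt1* between loxP sites, so cells that do not use the *Myh11* promoter kept the gene. The labels of both samples give Dnmt1lox/lox in the strain and a knockout in the free description, and the groups were taken from the genotype label. Each genotype had 1 library, made from RNA of 4 mice of both sexes, and the sources used here do not say how the RNA of the mice was combined. With 1 library per genotype no difference between these libraries had a replicate check, and no test was made. Below, "at least doubled" means that FPKM in *Dnmt1*-KO divided by FPKM in *Dnmt1*-WT was 2 or more.

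p53 is a transcription factor that is held at a low level by the ubiquitin ligase MDM2 and is stabilised, mostly as a protein, when DNA is damaged or a cell is stressed. It then switches on genes that stop the cell cycle, repair DNA or start apoptosis. The best known of its arrest targets is *Cdkn1a*, whose product p21 blocks cyclin-dependent kinases (CDKs) and through them keeps mitotic genes repressed by the DREAM complex. Several of its targets are also induced by other stress pathways. p53 binds a site of 20 bases made of 2 motifs of 10 bases placed side by side.

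**Figure D1:**
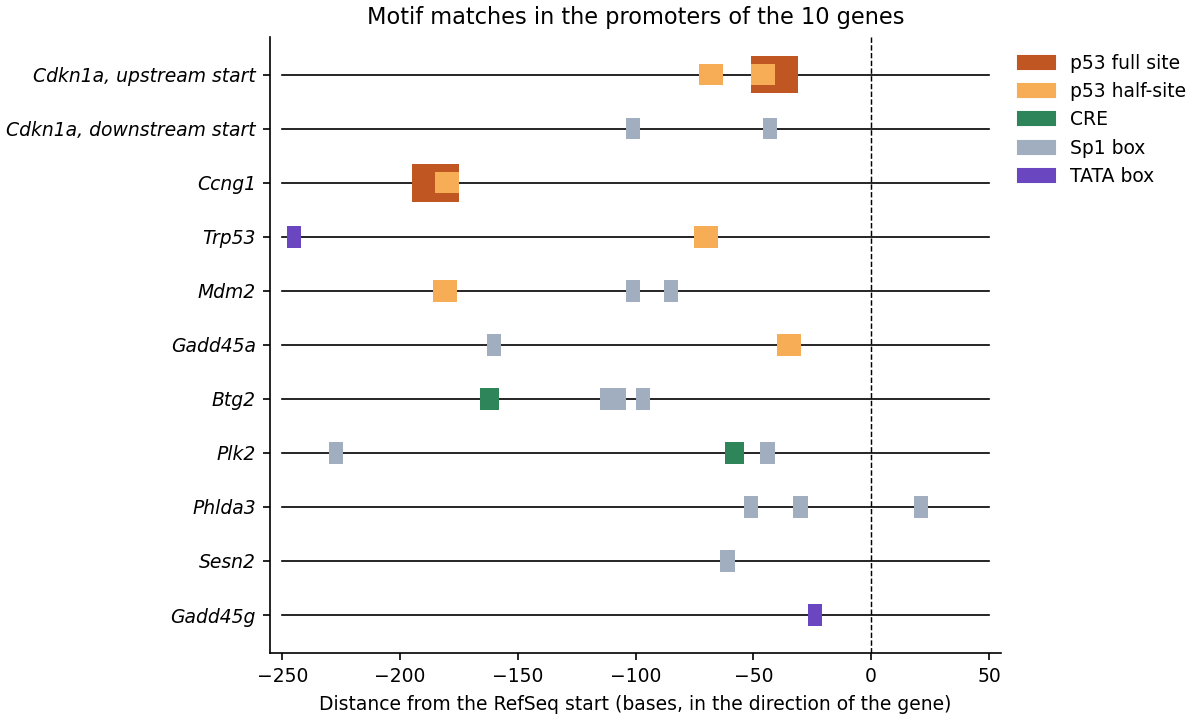
Positions of motif matches in the RefSeq promoters of the 10 genes, 11 promoters in all, from 250 bases before to 50 bases after each start (dashed line); boxes are drawn to scale by motif (full site, the p53 site of 20 bases; half-site, the motif of 10; CRE, the cyclic AMP response element; the Sp1 and TATA boxes are spelled out in the text). Boxes for the p53 site of 20 bases stand before the upstream start of *Cdkn1a* and in the promoter of *Ccng1*.

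The promoters of the 10 genes were read from RefSeq (GRCm38.p6), and *Cdkn1a* has 2 of them because it has 2 starts, at 29090979 and 29093769 on the plus strand of chromosome 17. The p53 site of 20 bases, with up to 1 mismatch to the consensus outside the core C and G of each motif, was found in the promoters of *Cdkn1a* and *Ccng1*, against 22 of 32851 promoters of the same length in the whole table, or 0.0670%. The rules for this longer site, and the search for TGACGTCA below, were set after the promoters had been seen. The upstream promoter of *Cdkn1a* is shown because it holds the site 51 bases before that start and 2841 bases before the downstream start, with the p53 motif matches in capitals (chr17:29090729-29091028, plus strand).

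Cdkn1a, upstream start: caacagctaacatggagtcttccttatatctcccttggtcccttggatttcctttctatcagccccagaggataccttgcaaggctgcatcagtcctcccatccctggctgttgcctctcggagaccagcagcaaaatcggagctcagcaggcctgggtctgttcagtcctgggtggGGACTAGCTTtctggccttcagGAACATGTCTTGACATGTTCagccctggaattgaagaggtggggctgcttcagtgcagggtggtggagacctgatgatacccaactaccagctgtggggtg

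The downstream promoter of *Cdkn1a* (chr17:29093519-29093818, plus strand) is shown for contrast, since it has no match to the p53 motif and 23 CpG dinucleotides against 2 upstream.

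Cdkn1a, downstream start: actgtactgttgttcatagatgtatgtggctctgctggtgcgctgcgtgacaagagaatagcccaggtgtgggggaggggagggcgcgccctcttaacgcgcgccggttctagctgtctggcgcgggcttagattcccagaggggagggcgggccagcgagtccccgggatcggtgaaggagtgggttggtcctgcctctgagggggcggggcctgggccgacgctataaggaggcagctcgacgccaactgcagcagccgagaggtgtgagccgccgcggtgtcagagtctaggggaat

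The sites of 20 bases in *Cdkn1a* (chr17:29090928-29090947, plus strand) and *Ccng1* (chr11:40755462-40755481, minus strand) are set side by side because their genes gave very different ratios, with the site in capitals and 5 bases on each side.

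Cdkn1a site: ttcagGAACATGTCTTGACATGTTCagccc
Ccng1 site: aggccAGACCTGCCCGGGCAAGCCTtggca

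The single p53 motif of 10 bases is far more common. It was found in promoters of 5 of the 10 genes (*Trp53*, *Cdkn1a*, *Mdm2*, *Ccng1* and *Gadd45a*), and in 8.36% of all promoters. No match means only that the motif is not in this window, and known p53 sites of other targets lie in introns or farther away. The promoters of *Btg2* and *Plk2* share another element, TGACGTCA, the cyclic AMP response element, which 1.79% of all promoters hold on either strand. They are shown because 1 of these genes at least doubled and the other did not, with the element in capitals (*Btg2*, chr1:134079106-134079405, minus strand; *Plk2*, chr13:110394794-110395093, plus strand).

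Btg2: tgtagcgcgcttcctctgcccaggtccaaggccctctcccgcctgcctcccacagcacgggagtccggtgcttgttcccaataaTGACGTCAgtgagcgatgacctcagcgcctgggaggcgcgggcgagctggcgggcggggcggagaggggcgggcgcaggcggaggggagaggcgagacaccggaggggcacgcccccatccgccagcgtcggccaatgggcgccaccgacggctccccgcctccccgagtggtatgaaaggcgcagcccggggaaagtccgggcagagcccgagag
Plk2: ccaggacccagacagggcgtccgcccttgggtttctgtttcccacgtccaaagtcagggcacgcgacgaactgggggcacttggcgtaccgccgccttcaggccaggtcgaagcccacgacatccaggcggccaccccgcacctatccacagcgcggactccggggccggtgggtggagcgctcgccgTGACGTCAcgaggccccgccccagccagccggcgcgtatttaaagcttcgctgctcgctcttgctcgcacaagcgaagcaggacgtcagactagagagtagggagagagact

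Other promoter features of the group were counted on both strands. The Sp1 box GGGCGG stood in promoters of 7 of the 10 genes and in 35.7% of all promoters. Matches to the TATA box sequence TATAAA were found in promoters of *Trp53* and *Gadd45g* and in 13.6% of all promoters. The match of *Trp53* lay 248 bases before its start on the opposite strand, and that of *Gadd45g* 27 bases before its start. CATG, the core of the *Cdkn1a* site, was found in promoters of 4 of the genes and in 61.1% of all promoters. TGACG, which lies within the cyclic AMP response element, was found in those of *Mdm2*, *Btg2* and *Plk2* and in 20.8% of all promoters. CpG dinucleotides numbered from 2 to 35 per promoter with a median of 23, and the median over all promoters was 7. The upstream *Cdkn1a* promoter was the lowest of the 11 and the *Mdm2* promoter the highest. Methylation of these promoters was not analysed here.

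Of the 10 genes, 4 at least doubled in the *Dnmt1*-KO library, and none was at most halved. Over the 16102 genes above 0 in both libraries, 11.8% passed the first limit and 4.98% the second. The 10 genes were chosen with earlier results of these data known, so setting them against all genes is a description only. The 4 genes were *Cdkn1a*, *Sesn2*, *Btg2* and *Gadd45g*, and *Cdkn1a* stood far above the other 3. A further 3, *Phlda3*, *Trp53* and *Ccng1*, had ratios above 1, and *Plk2*, *Gadd45a* and *Mdm2* had ratios just below 1. With *Phlda3*, 5 of the 10 reached a ratio of 1.5, as did 19.7% of all genes, and none of the 10 was lowered as far, against 12.6%. Among the 12758 genes with 1 FPKM or more in both libraries, where all 10 lie, 5.53% had a ratio of 2 or more, 2.82% of 0.5 or less, and 12.4% of 1.5 or more, and 10.5% were lowered as far. A ratio above 1 was found for 7 of the 10, for 50.3% of genes above 0 and for 47.1% of those at 1 FPKM or more. The median log2 ratio of the group, with 0.1 added to each FPKM, was 0.53, and without *Cdkn1a* it was 0.34, against 0.00 over all genes above 0 in both libraries.

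**Figure D2:**
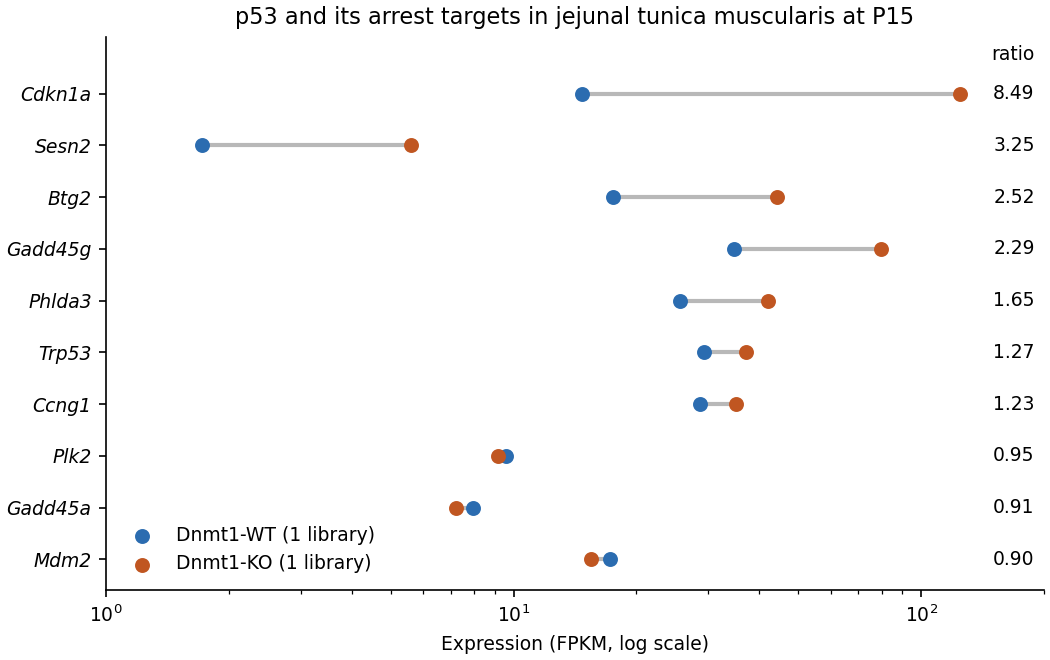
FPKM of each of the 10 genes in the libraries of *Dnmt1*-WT (blue) and *Dnmt1*-KO (orange) on a log axis, with the ratio at the right; each point is 1 library. *Cdkn1a* has the longest line, from 14.72 to 124.9 FPKM, and the lines of *Plk2*, *Gadd45a* and *Mdm2* are short.

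*Trp53* itself, on chromosome 11 from 69580359 to 69591873 (plus strand), went from 29.28 FPKM in *Dnmt1*-WT to 37.16 FPKM in *Dnmt1*-KO. The ratio was 1.27, and 28.6% of all genes above 0 in both libraries had a higher one. In the *Dnmt1*-WT library only *Gadd45g* was above it in this group, while in the *Dnmt1*-KO library 4 genes were. The mRNA level says nothing of the amount of p53 protein, which was not measured in these data.

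*Mdm2*, the ligase that marks p53 for degradation and is itself a p53 target, was slightly lower in *Dnmt1*-KO, where *Cdkn1a* was higher. It lies on chromosome 10 from 117688875 to 117710758 (minus strand) and went from 17.23 to 15.51 FPKM, a ratio of 0.900. Set against *Trp53*, its level was 0.588 of that of *Trp53* in *Dnmt1*-WT and 0.417 in *Dnmt1*-KO. *Mdm2* transcripts that start in the first intron are the ones p53 is known to induce, and the table gives 2 transcript variants in each library without a level for each.

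*Cdkn1a*, on chromosome 17 from 29090976 to 29100727 (plus strand), went from 14.72 FPKM in *Dnmt1*-WT to 124.9 FPKM in *Dnmt1*-KO. This moved it from the seventh to the first place by level within the group and from rank 4824 to rank 542 among all listed genes. Its ratio of 8.49 was rank 231 of 16102 genes, so 1.43% of genes had a higher ratio. Of the 2629 genes within 2-fold of its geometric mean, 42.9 FPKM, 6 had a ratio as high or higher. Both libraries held 2 *Cdkn1a* variants, and the table gives 1 level for the gene, so transcripts from its starts cannot be told apart.

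*Cdkn1a* alone made up 7.87% of the summed FPKM of the 10 genes in *Dnmt1*-WT and 31.2% in *Dnmt1*-KO. The sum went from 187.0 to 400.7 FPKM, and without *Cdkn1a* from 172.3 to 275.8 FPKM, a ratio of 1.60. The 5 genes nearest to *Cdkn1a* in the log2 FPKM of both libraries were *Defa24* (12.43 and 125.32 FPKM), *Mt2* (12.31 and 120.32), *Atp6v0c-ps2* (14.3 and 93.38), *Cyr61* (18.97 and 94.41) and *Tyrobp* (20.89 and 95.03). They include a defensin of Paneth cells, a metallothionein and a signalling adaptor of myeloid cells, and likeness over 2 libraries rests on 2 values for each gene. Among the 686 genes above 0 in *Dnmt1*-WT that reached 100 FPKM in *Dnmt1*-KO, 10 had a higher ratio than *Cdkn1a*. From the highest ratio down, these were *Gm11127*, *A430078G23Rik*, *Cfd*, *H2-Ab1*, *Prnp*, *Cd74*, *Car3*, *Igfbp2*, *Defa24* and *Mt2*. *H2-Ab1* and *Cd74* encode parts of MHC class II presentation, and *Cfd* and *Car3* are markers of adipocytes.

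The qPCR primers of the study for *Cdkn1a* are shown because they fix which transcripts that assay reads, and no qPCR value was used here.

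Cdkn1a forward: gaacatctcagggccgaaaacg
Cdkn1a reverse: gggcacttcagggttttctcttg

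They span 99 bases in 4 of the 5 annotated *Cdkn1a* transcripts, so the product has 1 length in all 4.

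*Btg2* encodes an antiproliferative protein of the BTG/Tob family that recruits the mRNA deadenylation machinery. It lies on chromosome 1 from 134075170 to 134079120 (minus strand) and went from 17.51 to 44.19 FPKM, a ratio of 2.52. Of the 3784 genes within 2-fold of its geometric mean, 75 had a ratio as high or higher. The relatives *Btg1*, *Btg3*, *Tob1* and *Tob2* had ratios between 0.901 and 1.21, so *Btg2* was the 1 gene of this family that at least doubled.

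*Sesn2*, a sestrin that restrains mTORC1 under amino acid or oxidative stress, lies on chromosome 4 from 132492032 to 132510501 (minus strand). Its level was the lowest of the group in both libraries, 1.72 FPKM in *Dnmt1*-WT and 5.59 FPKM in *Dnmt1*-KO, and the ratio was 3.25. At this level large ratios were common, since 11.3% of the 4056 genes within 2-fold of its geometric mean at least doubled. The share was 5.53% among genes at 1 FPKM or more in both libraries and 11.8% among those above 0. The number of variants found was 2 in *Dnmt1*-WT and 1 in *Dnmt1*-KO, and *Sesn2* was the only gene of the group in which that number differed. Of 4879 genes with 2 variants in *Dnmt1*-WT, 633 had 1 in *Dnmt1*-KO. *Sesn1*, another p53 target, went from 24.08 to 17.65 FPKM, and *Sesn3* from 11.04 to 6.24 FPKM, so the other sestrins moved the opposite way.

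The GADD45 proteins bind the kinase MTK1 upstream of p38 and JNK, and they slow the passage into mitosis. *Gadd45g*, on chromosome 13 from 51846678 to 51848468 (plus strand), was the most abundant gene of the group in the *Dnmt1*-WT library. It went from 34.77 to 79.68 FPKM, a ratio of 2.29. *Gadd45a*, the family member best known as a direct p53 target, lies on chromosome 6 from 67035096 to 67037457 (minus strand) and went from 7.93 to 7.2 FPKM, a ratio of 0.908. *Gadd45b*, which is not part of the group, went from 11.49 to 14.29 FPKM. *Gadd45g* was thus the only gene of this family of 3 that at least doubled. The study's qPCR primers for *Gadd45g* are shown because they lie in both annotated transcripts, within a stretch of 77 bases.

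Gadd45g forward: agaagtccgtggccaggata
Gadd45g reverse: gaagttcgtgcagtgctttcc

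*Phlda3* encodes a small protein that competes with AKT for membrane lipids and so restrains AKT. It lies on chromosome 1 from 135766119 to 135769136 (plus strand) and went from 25.56 to 42.18 FPKM, a ratio of 1.65, which 16.4% of all genes exceeded. *Phlda1* went from 7.28 to 14.25 FPKM, and *Phlda2* was near the bottom of the scale at 0.14 and 0.27 FPKM. *Ccng1*, the cyclin G1 gene and one of the first p53 targets found, lies on chromosome 11 from 40748552 to 40755311 (minus strand). It went from 28.68 to 35.16 FPKM, a ratio of 1.23. *Ccng2*, its paralog, went from 7.63 to 6.11 FPKM.

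*Plk2*, a stress-induced polo-like kinase that acts in centriole duplication, lies on chromosome 13 from 110395046 to 110400844 (plus strand). It was listed at 9.58 FPKM in *Dnmt1*-WT and 9.13 FPKM in *Dnmt1*-KO, a ratio of 0.953, which rose to 1.01 when ratios were centred on transcript GC content. The mitotic kinase gene *Plk1* went from 3.93 to 9.90 FPKM and *Plk3*, another stress-induced kinase, from 1.01 to 4.22 FPKM, so both at least doubled. *Plk4* went from 2.09 to 2.32 FPKM, and *Plk5* was at 0.10 FPKM in *Dnmt1*-WT and listed at 0 in *Dnmt1*-KO.

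**Figure D3:**
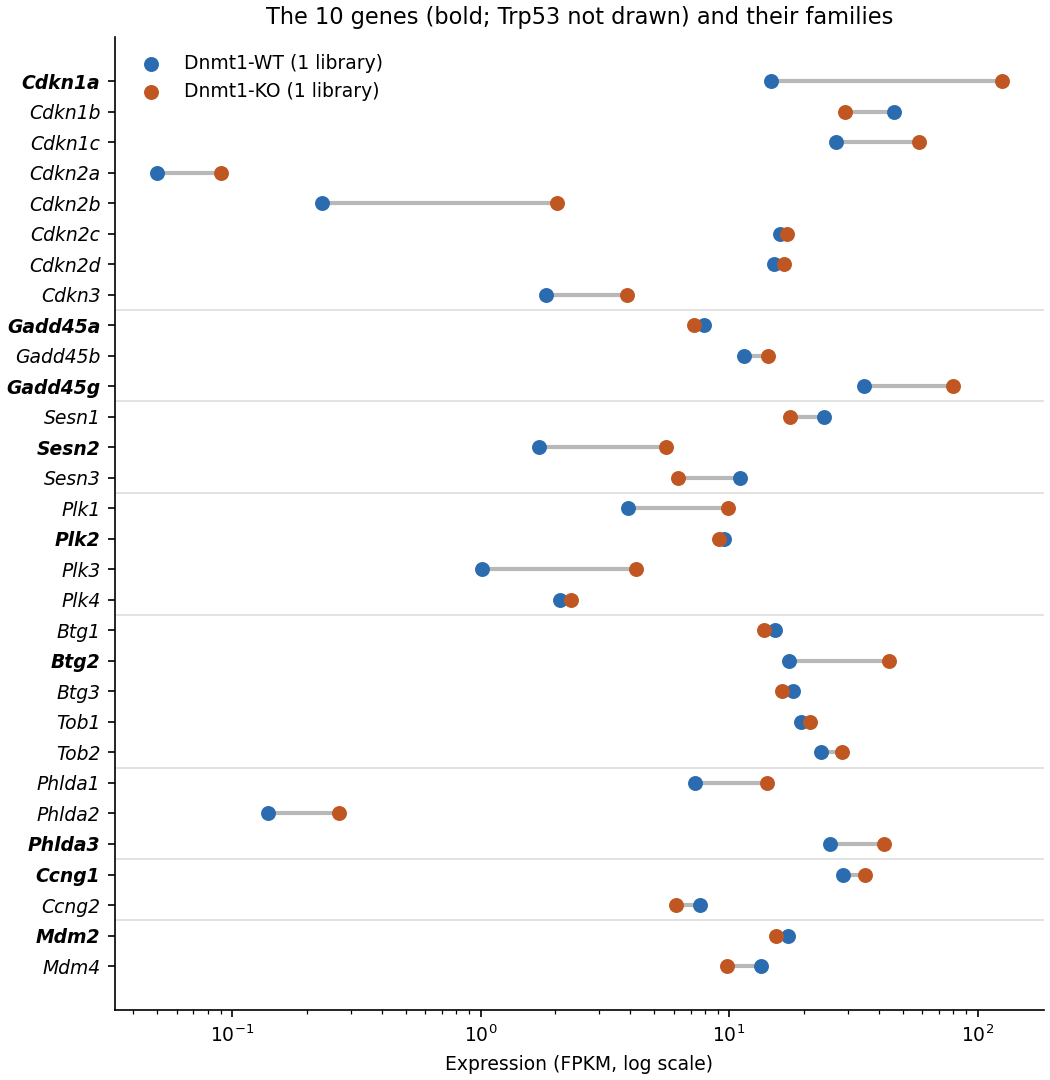
FPKM on a log axis of 9 of the 10 genes (bold) and of the other genes of their families, each point being 1 library, blue for *Dnmt1*-WT and orange for *Dnmt1*-KO; grey lines part the families. Within the CDK inhibitors *Cdkn1a* and *Cdkn2b* have the longest lines, and *Gadd45g*, *Sesn2* and *Btg2* have the longest lines of their families.

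p21 belongs to the CDK inhibitors, and all 8 genes of a list of genes named as such by symbol were found. With *Cdkn1a* included, 4 at least doubled, where 11.8% of all genes did and 5.53% of those at 1 FPKM or more. The median log2 ratio was 0.69. Without *Cdkn1a* 3 of 7 at least doubled, *Cdkn1c*, *Cdkn2b* and *Cdkn3*, and the median was 0.34. *Cdkn2b* was below 1 FPKM in *Dnmt1*-WT, so it is not among the genes behind the 5.53%. The count of 4 was 3 after division by the FPKM sum, with a pseudocount of 1, and when centred on transcript length or GC content. With a pseudocount of 1 the median of the 8 was 0.45. *Cdkn1c*, which encodes p57, went from 26.99 to 58.18 FPKM, a ratio of 2.16, while *Cdkn1b*, which encodes p27, went the other way, from 45.95 to 29.37 FPKM, a ratio of 0.639. In the *Dnmt1*-WT library *Cdkn1b* was the most abundant gene of the 8, and in the *Dnmt1*-KO library *Cdkn1a* was. *Cdkn2b*, encoding p15, went from 0.23 to 2.03 FPKM, and *Cdkn2a*, which encodes p16 and the MDM2 inhibitor p19ARF, was at 0.05 and 0.09 FPKM, close to the lowest value above 0 in either library, 0.03 FPKM. *Cdkn2c*, *Cdkn2d* and *Cdkn3* had ratios of 1.07, 1.10 and 2.10.

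On the list of p53 regulators and relatives, none of the 12 genes at 1 FPKM or more in a library passed the 2-fold limit. Of all 15 on the list, 5 had a ratio above 1, where 50.3% of all genes did, and 10 below. The median log2 ratio was -0.18, with -0.28 for a pseudocount of 0 and -0.11 when centred on GC content. The 1 gene of the list that at least doubled, against 11.8% of all genes, was *Trp63*, and 0 were at most halved, against 4.98%. *Trp63* was at 0.03 FPKM in *Dnmt1*-WT, the lowest value listed above 0, and at 0.23 FPKM in *Dnmt1*-KO. *Trp73* was at 0.07 and 0.05 FPKM. *Mdm4*, the partner of MDM2, went from 13.43 to 9.81 FPKM, the phosphatase gene *Ppm1d* from 6.63 to 5 FPKM, and the ligase gene *Rfwd2* from 14.25 to 9.34 FPKM. *Hipk2*, a kinase that phosphorylates p53, went from 7.59 to 8.55 FPKM.

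Of the 16 genes of DNA damage signalling 5 had a ratio above 1, where 50.3% of all genes did, and 11 below. Their median log2 ratio was -0.23, or -0.10 when ratios were centred on transcript length and -0.05 when centred on GC content. *Chek2*, the checkpoint kinase 2 gene, went from 21.86 to 8.83 FPKM, a ratio of 0.404. It was the 1 gene of this list that was at most halved, where 4.98% of all genes were. *Atm* went from 2.53 to 1.96 FPKM, *Atr* from 2.58 to 1.73 FPKM and *Nbn* from 9.65 to 6.55 FPKM. *Brca1*, at 0.53 and 1.06 FPKM, was the 1 gene that at least doubled, at a ratio of just 2, where 11.8% of all genes did so. *Clspn* (0.92 and 1.68 FPKM) and *H2afx* (20.4 and 32.22) also had ratios above 1.

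Among the p53 targets outside the group, those of apoptosis were mostly higher in the *Dnmt1*-KO library. Of 14 such genes, 11 had a ratio above 1, a direction shared by 50.3% of all genes, and the median log2 ratio was 0.67. *Bid* went from 0.55 to 2.54 FPKM and *Pmaip1*, which encodes NOXA, from 0.32 to 0.76 FPKM. These 2 of the 14 at least doubled, a count near the 11.8% of all genes above 0. Both were below 1 FPKM in *Dnmt1*-WT, so the 5.53% of genes at 1 FPKM or more in both libraries is no measure for them. *Perp* (9.93 and 17.93 FPKM), *Aen* (9.38 and 16.08) and *Bax* (41.76 and 63.2) had ratios between 1.51 and 1.81. *Zmat3*, *Trp53inp1* and *Ei24* were just below 1, with ratios of 0.868, 0.881 and 0.897.

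The 21 targets of repair and metabolism were divided, with 13 ratios above 1, where 50.3% of all genes had one, and 8 below. Their median log2 ratio was 0.21, or 0.12 after division by the FPKM sum and 0.45 when centred on GC content. The largest ratio was that of *Gdf15*, a secreted stress cytokine, which went from 0.77 to 10.73 FPKM, a ratio of 13.9. *Gtse1* (1.10 and 3.30 FPKM), *Dcxr* (2.81 and 7.78), *Sulf2* (21.47 and 45.85) and *Rps27l* (151.69 and 320.18) at least doubled as well, against 11.8% of all genes. After division by the FPKM sum *Sulf2* and *Rps27l* fell just short, which left 3 in place of 5. *Rps27l* is close in sequence to *Rps27*, and reads could be divided between them. The glycolysis regulator TIGAR, listed as *9630033F20Rik*, went from 14.57 to 8.43 FPKM and the ribonucleotide reductase gene *Rrm2b* from 7.86 to 4.66 FPKM. The repair genes *Ddb2*, *Xpc* and *Polk* had ratios between 0.849 and 1.15.

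**Figure D4:**
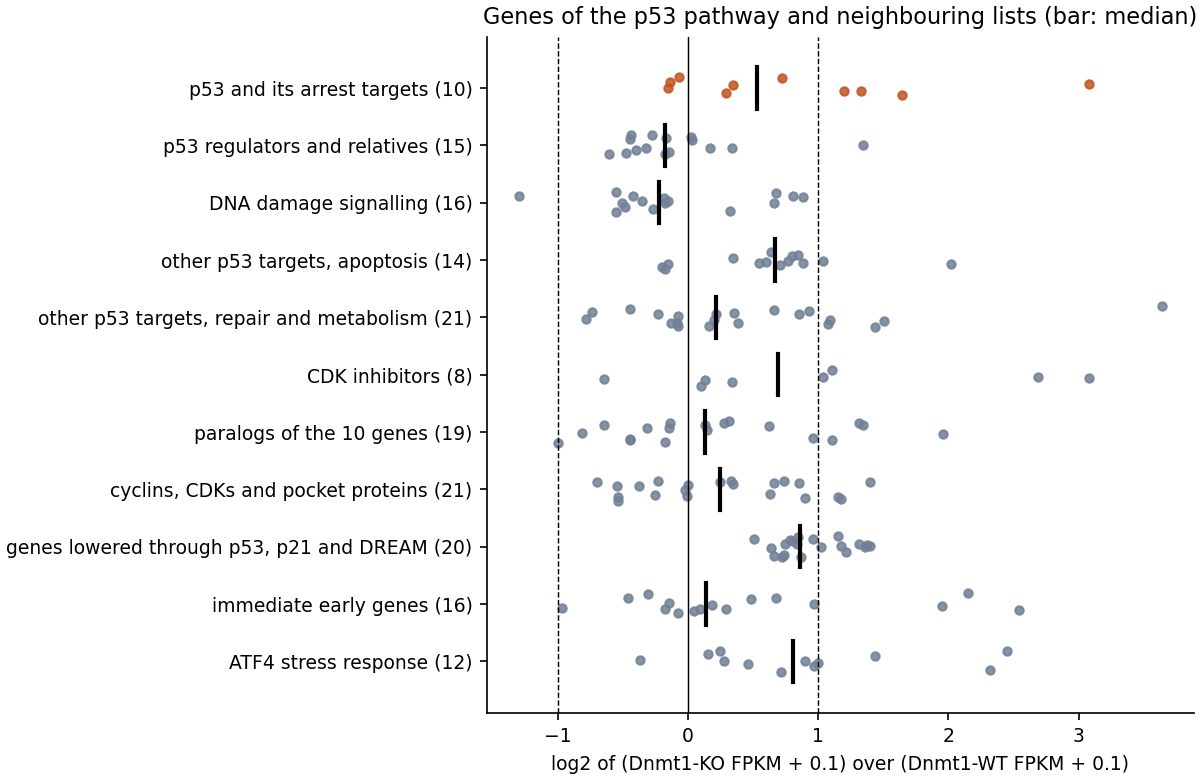
Log2 of *Dnmt1*-KO over *Dnmt1*-WT, with 0.1 added to each FPKM, for the 10 genes (orange) and for the genes of 10 further lists (grey); each point is 1 gene, black bars are medians, dashed lines mark doubled and halved, and the number of genes is in brackets. The medians run from -0.23 for DNA damage signalling to 0.86 for the genes lowered through p53, p21 and DREAM.

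The promoter table also allowed the converse question, which genes carry a p53 site of 20 bases near their start. Of the 22 genes that do, 9 were listed and 7 were above 0 in both libraries. *1600002D24Rik* and *Gm15987* were at 0 in *Dnmt1*-WT, and at 0.09 and 0.54 FPKM in *Dnmt1*-KO. Of the 7, *Cdkn1a*, *Gtse1* and *Rps27l* at least doubled, against 11.8% of all genes, and the median ratio was 1.23, that of *Ccng1*. The rules for the site were set with the promoters of the 10 genes in view, so *Cdkn1a* and *Ccng1* are no independent cases. The count and the median include both. Of the others *Gtse1* and *Rps27l* at least doubled, and *Rps27l* did not after division by the FPKM sum. *Ccng1*, *Sptbn4* (1.04 and 1.23 FPKM) and *Mthfd1* (8.66 and 9.08) had ratios from 1.05 to 1.23, and *Calhm2* went from 6.35 to 5.43 FPKM.

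Genes that p53 lowers through p21 and DREAM act in mitosis and DNA replication. All 20 genes of this list were higher in the *Dnmt1*-KO library, alongside the higher *Cdkn1a*, and 8 at least doubled, where 50.3% and 11.8% of all genes did so, and 47.1% and 5.53% of those at 1 FPKM or more. The median log2 ratio was 0.86. *Birc5*, which encodes survivin, went from 4.99 to 13.28 FPKM, *Ube2c* from 15.43 to 39.66 FPKM, and *Cenpf* had the lowest ratio, 1.43, from 2.46 to 3.53 FPKM. Of the 21 cyclins, CDKs and pocket protein genes, 12 had a ratio above 1, 3 had a ratio of 2 or more and 0 of 0.5 or less. These counts were near the 50.3%, 11.8% and 4.98% of all genes above 0. Among genes at 1 FPKM or more in both libraries the shares were 47.1%, 5.53% and 2.82%. With a pseudocount of 1 the count of 3 was 1. *Ccnb1* went from 3.97 to 8.94 FPKM and *Ccnd1* from 10.96 to 20.51 FPKM, while *Ccnd2*, the most abundant of them in *Dnmt1*-WT, went from 104.65 to 64.3 FPKM. Among the CDKs that p21 binds, ratios were 1.68 for *Cdk1*, 0.849 for *Cdk2*, 1.26 for *Cdk4* and 0.983 for *Cdk6*. In bulk tissue these values cannot tell a change within cells from a change in the number of dividing cells.

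*Btg2*, *Gadd45g*, *Plk2* and *Sesn2* also respond to growth factor, amino acid or stress signals, so lists of those responses were set beside them. Of 16 immediate early genes, 10 had a ratio above 1, 3 had a ratio of 2 or more and 0 of 0.5 or less. These counts were again near the shares of all genes above 0. Among genes at 1 FPKM or more the shares were 47.1%, 5.53% and 2.82%. The median log2 ratio was 0.14, which was 0.04 after division by the FPKM sum and turned to -0.0042 when centred on GC content. *Nr4a1* went from 15.17 to 67.8 FPKM and *Atf3* from 1.44 to 8.89 FPKM, while *Fos* went from 31.84 to 16.21 FPKM and *Fosb* from 3.87 to 2.78 FPKM. Of 12 genes of the ATF4 stress response, 11 had a ratio above 1, the median log2 ratio was 0.81, and 4 at least doubled, or 3 after division by the FPKM sum and with pseudocounts of 0.1 and 1, where 50.3% and 11.8% of all genes did so. *Nupr1* went from 17.45 to 47.31 FPKM, *Chac1* from 0.46 to 2.96 FPKM and *Trib3* from 0.55 to 3.14 FPKM, and *Atf4* itself from 84.57 to 102.33 FPKM. The part of these responses in the 4 doubled genes was not tested.

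**Figure D5:**
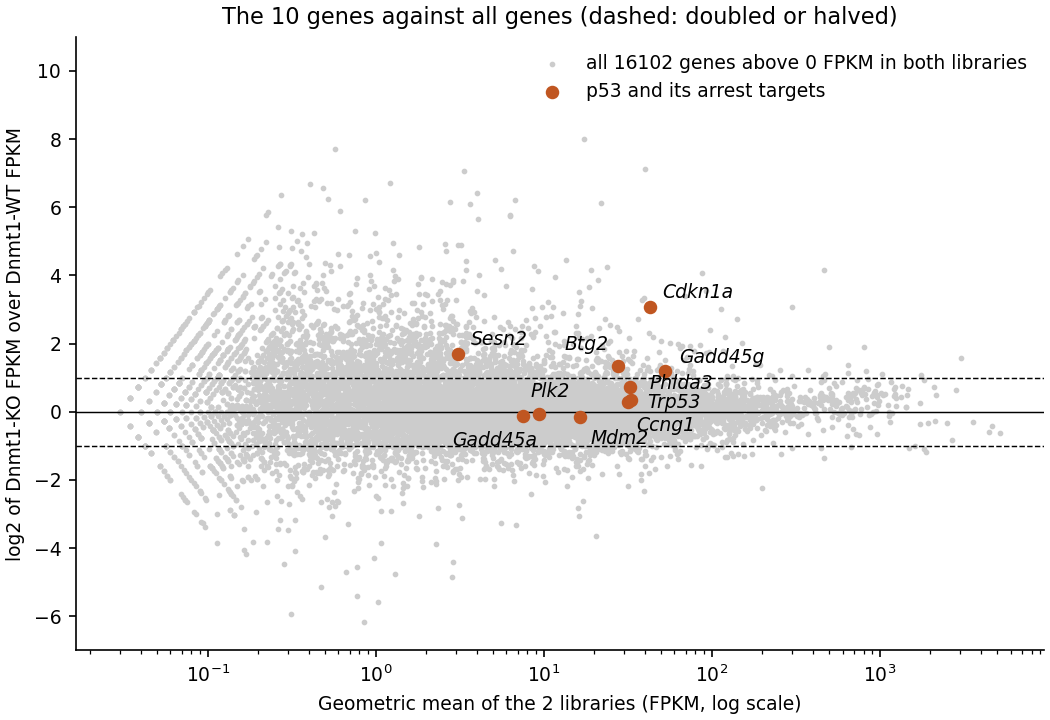
Log2 of *Dnmt1*-KO over *Dnmt1*-WT FPKM against the geometric mean of both libraries for 16102 genes (grey) and the 10 genes (orange); dashed lines mark doubled and halved. *Cdkn1a* lies at the upper edge of genes of its level, and *Sesn2* lies where the grey points spread widely.

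Markers of other cell types also differed between the libraries, and their part in the results was not tested. All 8 smooth muscle markers were present at high levels and all were lower in *Dnmt1*-KO, and their summed level went from 16755 to 12124 FPKM. All 8 leukocyte markers at least doubled, with a sum of 47.7 FPKM in *Dnmt1*-WT and 185.5 FPKM in *Dnmt1*-KO, as did 9 of 11 macrophage markers (149.9 and 523.4 FPKM) and 7 of 8 endothelial markers (54.7 and 149.0 FPKM). Adipocyte markers summed to 147.4 and 1549 FPKM, with all 10 higher in *Dnmt1*-KO and *Lep* listed at 0 in *Dnmt1*-WT. Paneth cell markers summed to 17.5 and 165.5 FPKM, with all 8 higher and *Mmp7* listed at 0 in *Dnmt1*-WT. Enterocyte markers summed to 487.0 and 1051 FPKM, with 8 of 10 higher. Fibroblast markers summed to 3318 and 5074 FPKM, with 6 of 8 higher, and mesothelial markers to 370.5 and 473.3 FPKM, with 4 of 6 higher. Sums were 532.3 and 639.9 FPKM for enteric neurons, with 6 of 8 higher, 73.8 and 103.5 FPKM for enteric glia, with 4 of 6 higher and a difference carried by *Gfap* (4.78 and 35.36 FPKM), and 282.3 and 176.6 FPKM for interstitial cells of Cajal, with 0 of 4 higher. Apart from *Lep* and *Mmp7*, no marker in these lists was at 0. In a bulk library, fewer cells of a type and less RNA per cell cannot be told apart, and *Cdkn1a* from smooth muscle cells cannot be told apart from *Cdkn1a* of other cells. *Dnmt1* was listed at 11.58 and 7.58 FPKM, a value over the whole gene that also counts cells without Cre and exons outside the deletion.

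GENCODE M21 places a gene over part of 3 of the 10. An antisense transcript, *E230016M11Rik*, overlaps *Gadd45a* by 859 bases and was listed at 1.19 and 0.81 FPKM. *Gm12981* lies within *Sesn2* on the same strand, and an unnamed model lies opposite the downstream start of *Cdkn1a* over 1046 bases, and neither is among the listed symbols. Whether strand was used in counting is not given in the sources used here, so reads from such partners cannot be told apart.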

How the data were processed

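Total RNA of jejunal tunica muscularis was made into TruSeq RNA libraries, 1 for each genotype. The authors deposited expression as FPKM per gene symbol, beside how many variants of each gene a library held and their own fold change, a ratio that was not used. TopHat 1.4.1 and Cufflinks 2.0.2 are named in the submitters' processing notes, and the genome was mm10 (GRCm38). The fragments behind each FPKM are unknown, and neither intervals nor p-values were computed.

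Ratios of the listed FPKM were taken without rescaling for genes above 0 in both libraries, and medians used log2 of FPKM + 0.1. The 10 genes and the further lists (10 of pathways, 12 of cell markers) were chosen from general knowledge, with earlier results of these data known. The genes named were the 10 themselves, CDK inhibitors and paralogs, the targeted gene, genes past 2-fold among p53 regulators and targets, and in other lists up to 3 with the highest and 2 with the lowest ratio of FPKM + 1 among those at 1 FPKM or more in a library. *Ppm1d*, *Mdm4*, *Atm*, *Atr*, *Brca1*, *H2afx*, *Bax*, *Atf4*, the CDKs and the repair genes were named for their function, and genes with a p53 site, with higher ratios than *Cdkn1a* or at 0 after their values were seen. Symbols were matched directly or by a RefSeq synonym. *Btg4* was not found. Annotation was GENCODE M21 and promoters were those of RefSeq GRCm38.p6. Alternatives were 3 scalings, 4 pseudocounts, a filter at 1 FPKM and a fold of 1.5, and, added after the data were seen, centring on transcript length or GC content in 10 bins. Counting was tested on simulated data. Python 3.11.15, numpy 2.4.6, pandas 2.3.3 and matplotlib 3.10.9 were used.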

Additional observations from a re-analysis of the deposited data

How the results depend on the processing

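The count of 4 doubled and 0 halved genes in the group held under every scaling and pseudocount run, with a filter at 1 FPKM and with genes at 0 counted; a fold of 1.5 gave 5 and 0. The median log2 ratio of the group was 0.56 with median centring, 0.43 after division by the FPKM sum, 0.60 by the upper quartile, 0.52 with a pseudocount of 1, 0.52 centred on transcript length, 0.57 centred on GC content and 0.34 without *Cdkn1a*. In the same order the *Cdkn1a* ratio was 8.66, 7.91, 8.87, 8.01, 8.44 and 8.10, and 8.48 and 8.43 with pseudocounts of 0.01 and 0.1. Directions of the 10 genes were unchanged under these settings except that of *Plk2*. With a pseudocount of 1 the doubled genes numbered 0 in place of 1 among p53 regulators, 1 in place of 2 among apoptosis targets and 1 in place of 3 among cyclins and CDKs. They numbered 3 in place of 4 among CDK inhibitors and among paralogs, and 2 in place of 3 among immediate early genes. The 8 doubled genes of the list lowered through p53, p21 and DREAM were 6 with that pseudocount, 7 after division by the FPKM sum and 10 when centred on GC content. Doubled genes of DNA damage signalling numbered 0 in place of 1 after division by the FPKM sum and with pseudocounts of 0.01, 0.1 and 1, and those of repair and metabolism 3 in place of 5 after division by the FPKM sum. Halved immediate early genes numbered 1 in place of 0 after division by the FPKM sum and when centred on transcript length or GC content, where their median log2 ratio was -0.0042 in the last case. The cause was not tested. No paired analysis was possible because each genotype has 1 library. Depth per gene is unknown, and with 1 library per genotype nothing here separates genotype from handling of the sample.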
